A study of Mus musculus with 6 samples.

Results

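The genes described are 10 components of the circadian clock, the transcriptional loop that keeps daily time in most cells. They were taken by name from a table of 19613 genes as Arntl (also called Bmal1), Clock, Per1, Per2, Per3, Cry1, Cry2, Nr1d1 (Rev-erb alpha), Nr1d2 (Rev-erb beta) and Dbp, and all 10 were found in it. Arntl and Clock make up the positive limb of the loop. Per1, Per2, Per3, Cry1, Cry2, Nr1d1 and Nr1d2, 7 genes, make up the negative limb, and Dbp is an output. The question asked was whether genes of the positive and the negative limb varied in opposite directions over the arrays.

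The study tested cultured cells as sensors of disease signals in blood. RNA of embryoid body cultures was hybridised to 6 Affymetrix mouse exon arrays. In an embryoid body, mouse embryonic stem cells differentiate as an aggregate. The cells were of a single line (HBG3 in the labels, HGB3 in the methods) in which Hb9, a motor neuron gene, drives green fluorescent protein. The arrays formed 1 group, named here as replicates 2, 4, 5, 6, 7 and 8, and no control arrays were analysed here. After 6 days of differentiation, embryoid bodies were cultured for 24 h with 5% blood fluid from the Huntington's disease mouse model B6CBA-Tg(HDexon1)62Gpb/3J, from males about 10 weeks old that carry exon 1 of the human huntingtin gene. The sample labels call this fluid plasma and the series title and the methods call it serum. An embryoid body holds several cell types, so fewer cells of a type and less RNA per cell cannot be told apart. The sources used here give no hour of harvest, and although the methods speak of separate serum samples, they do not say whether each came from a different mouse or which arrays shared a batch of embryoid bodies. The p-values give how often re-pairing these arrays yields an r at least as large in size. They treat the arrays as interchangeable, which a shared batch or donor would break, and the spread between arrays may be partly technical.

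In the core loop, the proteins ARNTL and CLOCK bind E-box DNA as a pair and switch on the Per and Cry genes, whose proteins return to block the pair. ARNTL and CLOCK also switch on Nr1d1, Nr1d2 and Dbp, and the REV-ERB proteins made from Nr1d1 and Nr1d2 repress Arntl at RORE elements. In tissues with a running clock Arntl messenger RNA therefore peaks at about the opposite time of day to that of Nr1d1, while Clock varies little in many tissues. Embryonic stem cells are known to lack overt daily rhythms, which appear as the cells differentiate, and serum or glucocorticoids can reset the clock of cultured cells.

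Promoter stretches that hold the letters of such elements are shown, because the limbs act on each other through E-boxes and RORE elements. D-boxes, bound by DBP, and the cyclic AMP element were searched as well. RefSeq promoters (GRCm38.p6, from 250 bases before to 50 bases after each start) were in the table used for 9 of the 10 genes, with 13 promoters, and were searched on both strands for E-boxes (CACGTG), E'-boxes (CACGTT, read as AACGTG on the other strand), D-boxes (TTATGTAA or TTACGTAA), the RORE core (TAGGTCA) and the cyclic AMP element (TGACGTCA). Each sequence runs 5′ to 3′ on the gene's strand, with the motif in capitals and 11 bases on either side.
Per1 E-box, chr11:69098772-69098799 (+), 166 bases before the start: gcacccaagtcCACGTGcagggatgtgt
Cry1 E-box, chr10:85185098-85185125 (-), 60 bases before the start: gtgccggtggtCACGTGgggtgcatgcc
Cry1 E'-box, chr10:85185117-85185144 (-), 79 bases before the start: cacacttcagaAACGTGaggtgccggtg
Cry2 E'-box, chr2:92434219-92434246 (-), 166 bases before the start: cacatggtgggAACGTGagggggcggag
Nr1d1 E'-box, chr11:98775389-98775416 (-), 28 bases before the start: gcacagatctcAACGTGccggctgctgg
Per3 D-box, chr4:151044852-151044881 (-), 205 bases before the start: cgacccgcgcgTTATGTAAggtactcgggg
Per3 D-box, chr4:151044805-151044834 (-), 158 bases before the start: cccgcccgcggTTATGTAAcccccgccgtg
Arntl RORE core, chr7:113207530-113207558 (+), 30 bases after the start: aaggcagaaagTAGGTCAgggacggaggt

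An exact E-box was in the promoters of 2 of these genes and in 7.15% of all 32851 promoters, and an E'-box was in those of 3 genes and in 4.68% of all promoters. The counts are of genes, 9 with 13 promoters between them, and the shares are of single promoters, so the 2 are not like for like. The TTATGTAA form of the D-box, the element bound by DBP, was in Per3 alone among the 9 and in 0.938% of all promoters. The RORE core, the element bound by the REV-ERB proteins, was in Arntl alone among them, in 1 of its promoters, and in 2.61% of all promoters. No searched motif lay in the windows of Clock, Nr1d2 or Dbp, which says only that these letters are not there. Per2 was the gene without a promoter in the set used, so it was not searched. A match is a description and not a site of binding.

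All 10 genes were above background, as 65.2% of all genes were. Background was set at a log2 intensity of 7.47, the 95th percentile of the mean levels of 1032 olfactory receptor genes, which few cells outside the nose use. Clock, Per1, Per2, Cry2 and Dbp also lay above the 99th percentile of those genes, 8.33. The other 5, among them Arntl and both Rev-erb genes, were within 1 log2 unit of background, as was every gene of the dimmest bin. Of the olfactory receptor genes, 20 had a higher mean than Arntl and 21 a higher mean than Nr1d2. Beyond this check against background, levels were not compared between genes, because different probes read each gene.

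In the positive limb, Arntl (NCBI gene 11865) and Clock (12753) encode the partners of the activating pair. The log2 intensity of Arntl ran from 7.79 in replicate 7, through a median of 7.92, to 8.002 in replicate 4, with a mean of 7.90 ± 0.079 (SD, n = 6). That of Clock ran from 9.85 in replicate 5 to 9.90 in replicate 4, with a median of 9.88 and a mean of 9.88 ± 0.017 (SD, n = 6). Arntl thus varied 1.16-fold between its lowest and highest arrays and Clock 1.03-fold. The SD of Arntl was 4.57 times that of Clock, a gap that narrowed after median centring of the arrays, when the SD was 0.078 for Arntl and 0.037 for Clock.

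In the negative limb, the Per genes encode the PERIOD repressors. Per1 (18626) ran from 9.09 in replicate 8, through a median of 9.15, to 9.22 in replicate 4 (mean 9.15 ± 0.047, SD, n = 6). Per2 (18627) ran from 9.43 to 9.55 in the same 2 arrays, with a median of 9.49 (mean 9.49 ± 0.044, SD, n = 6). Per3 (18628) was lowest in replicate 8, at 8.02, had a median of 8.10 and was highest in replicate 2, at 8.15, with an SD of 0.051. All 3 Per genes were therefore lowest on the same array.

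The Cry genes encode the CRYPTOCHROME repressors, which bind ARNTL and CLOCK directly. Cry1 (12952) ran from 8.21 in replicate 7, with a median of 8.24, to 8.32 in replicate 4, and had an SD of 0.042, which was 0.022 without replicate 4. Cry2 (12953) ran from 9.62 in replicate 5, with a median of 9.67, to 9.76 in replicate 2, and had an SD of 0.061. Replicates 2 and 4 held the highest value of each Per and Cry gene.

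The Rev-erb genes encode nuclear receptors that repress Arntl. Nr1d1 (217166) was lowest in replicate 4, at 8.06, where Arntl was highest, had a median of 8.12 and reached 8.14 in replicate 6 (SD 0.035, and 0.023 or 0.024 after the other scalings). Nr1d2 (353187) ran from 7.71 in replicate 7, with a median of 7.93, to 8.05 in replicate 4, and had an SD of 0.14, the largest of the 10. The output gene Dbp (13170), a PAR bZIP activator, ran from 8.90 in replicate 4, with a median of 8.95, to 9.03 in replicate 2, and had an SD of 0.053. Replicate 4 thus held the lowest value of Nr1d1 and Dbp and the highest value of 6 others.

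**Figure D1:**
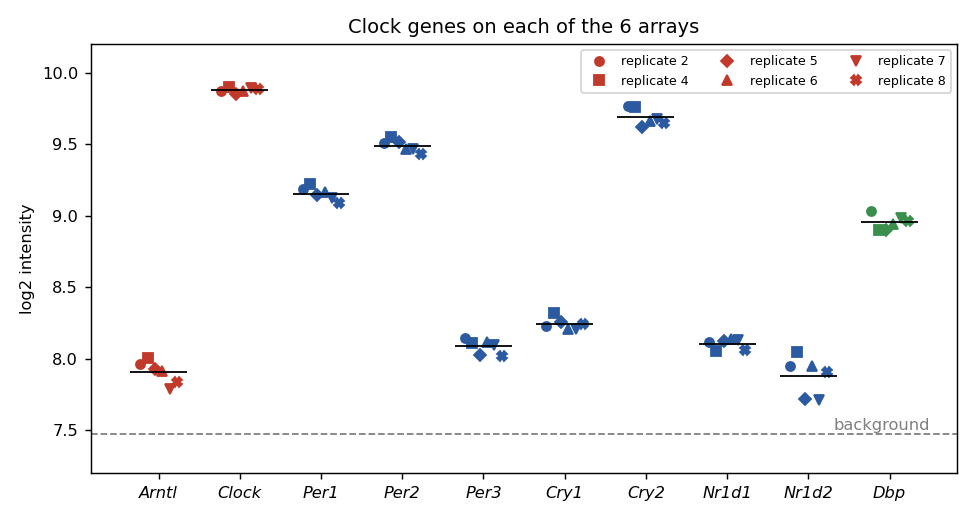
Log2 intensity of each of the 10 clock genes in the 6 arrays, with 1 symbol per replicate, a short line at each gene's mean and a dashed line at the background of 7.47. Positive limb genes are red, negative limb genes blue and Dbp green, and levels are not comparable between genes. Nr1d2 spreads most and Clock least, and replicate 4 is the highest array for 6 genes and the lowest for Nr1d1 and Dbp.

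The spread of the clock genes was small. The median SD of the 10 genes was 0.049, against 0.076 over all 12793 genes above background. Only Arntl and Nr1d2 exceeded that median, and only Nr1d2 exceeded the median SD of genes of like level, which was 0.11 in the dimmest of 4 equal bins of genes by level and 0.058 in the brightest. Between the lowest and highest arrays the median fold was 1.09 for the clock genes and 1.15 for all genes above background. Nr1d2, at 1.26-fold, was the only member of 10 that differed by over 1.2-fold, as 32.1% of all genes above background did. Without replicate 4 no member did, and after quantile normalization 2 members did.

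**Figure D2:**
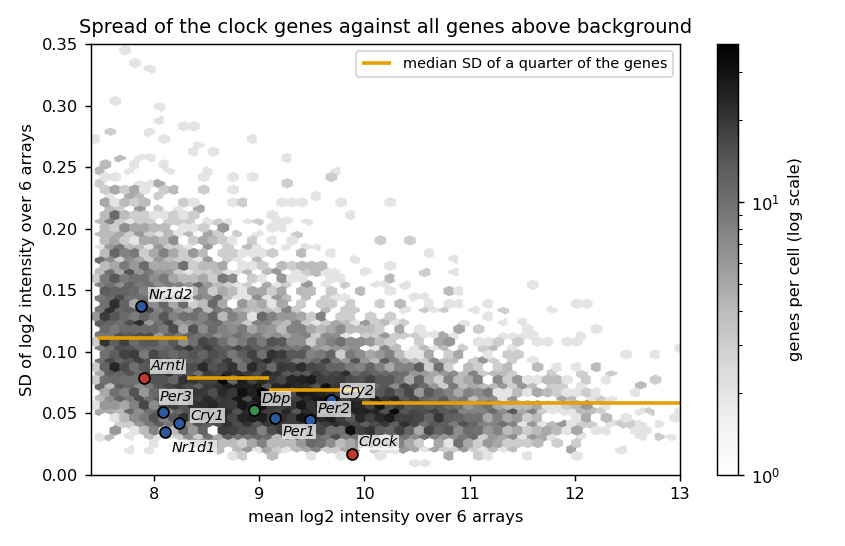
SD over the 6 arrays (log2) against mean log2 intensity for genes above background, shaded by number of genes on a log scale, with axes that stop at an SD of 0.35 and a mean of 13. Lines mark the median SD in each of the 4 bins of genes by level, and of the labelled clock genes only Nr1d2 lies above its line.

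In the values as deposited, the means of the 2 limbs did not vary in opposite directions over the 6 arrays. The sign of single pairs, however, those of Clock above all, depended on which arrays were kept and on their scaling. The mean deviation of the positive limb from its average (log2) was 0.023, 0.060, -0.00062, 0.00026, -0.052 and -0.031 in replicates 2, 4, 5, 6, 7 and 8. That of the negative limb was 0.037, 0.060, -0.036, 0.0088, -0.035 and -0.035. Both limbs were highest in replicate 4 and at or below their average in replicates 5, 7 and 8.

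Pearson's r of the limb means was 0.89 (jackknife SE 0.13) and Spearman's rho 0.83, given as a description with no test. With replicates 4 and 7 left out, in which the positive limb was highest and lowest, r was 0.81, and with any 1 array left out it stayed between 0.78 and 0.98. The positive limb mean follows mostly Arntl, and with Clock alone in its place r was 0.37. When the genes near background were removed, so that the positive limb was again Clock alone and Per1, Per2 and Cry2 were the negative limb, r was 0.30. All these values use the arrays as deposited, and the r of the limb means after other scalings is not reported here. Single pairs behind it, those of Arntl with Per1 and Per2, fell after quantile normalization and loess correction.

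**Figure D3:**
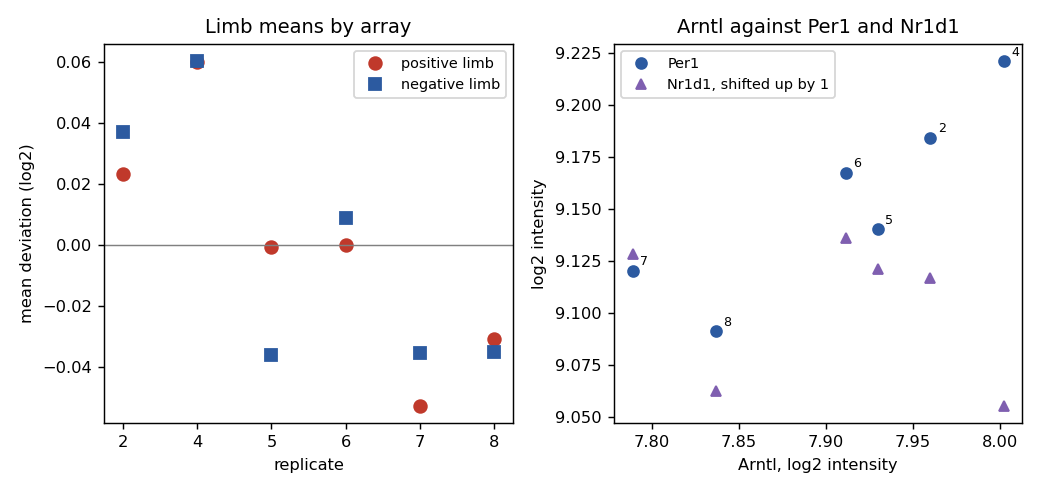
Left, mean deviation (log2) of the positive limb (circles) and the negative limb (squares) in each array. Right, log2 intensity of Per1 (circles, numbered by replicate) and of Nr1d1 shifted up by 1 (triangles) against that of Arntl over the same 6 arrays, where Per1 is highest and Nr1d1 lowest in the array with most Arntl.

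Of the 14 pairs of a positive and a negative limb gene, 12 had an r over 0 and 2 an r under 0, and the median r was 0.43. Over all genes above background, 45.6% had an r under 0 with Arntl and 50.6% with Clock. Quantile normalization, loess correction or ranks in place of values each gave 4 pairs under 0. The r of Arntl was over 0 with all 5 Per and Cry genes, from 0.40 with Per3 to 0.88 with Per1, but those with Per3, Cry1 and Cry2 did not pass the unadjusted test. With 1 array left out their lowest r was 0.20, 0.37 and 0.33.

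The pair of Arntl and Per1 had the highest r, at 0.88 (two-sided exact permutation p = 0.0264; adjusted p = 0.850 over the 12792 other genes above background), with a rho of 0.89 (exact p = 0.0333; adjusted p = 0.805). Arntl and Per2 followed with an r of 0.84 (exact p = 0.0347; adjusted p = 0.885) and the same rho. Without replicates 7 and 8, where Arntl was farthest from its median, r was 0.87 with Per1 and 0.92 with Per2. These were the 2 of 14 pairs with an unadjusted exact p under 0.05, beside 3.01% of all genes for Arntl with r over 0 and 2.17% for Clock. No pair passed after adjustment, and 0 pairs with r under 0 had an unadjusted p under 0.05, beside 2.2% of all genes for Arntl and 1.57% for Clock. The smallest exact p that the 720 pairings of 6 arrays allow is 0.00139. The lowest adjusted p of any gene was 0.635 with Arntl and 0.972 with Clock. With so few arrays the adjustment had little power to pass any pair, so its outcome does not count against one.

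Both relations moved with the scaling of the arrays. The r of Arntl and Per1 was 0.39 after quantile normalization and 0.35 after loess correction, and that of Arntl and Per2 was 0.27 and 0.23. In their place, Arntl and Nr1d2 (r = 0.64 as deposited) had an r of 0.83 after quantile normalization and 0.82 after loess correction and then passed the unadjusted exact test. Neither Arntl pair had an unadjusted p under 0.05 when replicate 2, 4, 6 or 8 was left out, although r stayed above 0.73 for both in every such fit.

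Nr1d1, the REV-ERB gene, supplied both pairs with r under 0. Its r was -0.24 with Arntl (exact permutation p = 0.650) and -0.63 with Clock (exact p = 0.233), neither past the test. Over all 9 other clock genes it had an r under 0 with 7, beside 56.1% of all genes. The lowest was -0.76 with Cry1 (exact p = 0.0681), which was -0.42 once the 2 arrays most extreme in Cry1 were left out. That pair passed unadjusted after median centring (r = -0.78, exact p = 0.0403) and had an r of -0.27 after quantile normalization and -0.41 after loess correction. The Arntl relation moved both ways with the arrays kept and their scaling. Its r was 0.27 without replicate 4 and 0.012 without replicate 7, but -0.95 without replicates 7 and 8 together and -0.60 after median centring, while that with Clock stayed under 0 whichever array was left out. Nr1d2, which encodes the related REV-ERB, had an r of -0.54 with Nr1d1 and 0.64 with Arntl.

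Clock, with its narrow range, had an r from -0.63 to 0.49 with the 7 negative limb genes, and none passed the test. Its sign turned easily, to -0.16 with Cry1 after quantile normalization and to -0.79 with Per2 without replicate 4. Without replicates 4 and 5, where Clock was highest and lowest, its r was under 0 with all 7, from -0.89 with Per1 and -0.83 with Nr1d2 to -0.016 with Cry1, over the 4 arrays left and with no test. Arntl and Clock, the partners of the activating pair, had an r of -0.09 with each other, and of 0.79 without replicates 7 and 8.

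**Figure D4:**
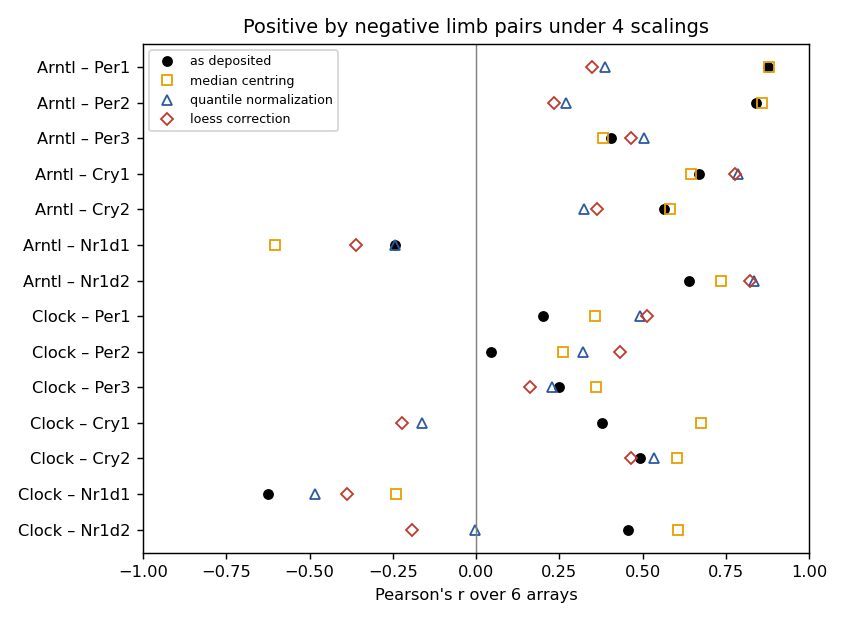
Pearson's r over the 6 arrays for each of the 14 pairs of a positive and a negative limb gene, as deposited and after 3 other scalings. The pairs of Arntl with Per1 and Per2 fall from 0.88 and 0.84 to below 0.40 after quantile normalization and loess correction, and both Nr1d1 pairs stay below 0 under all 4.

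Within the negative limb, 15 of 21 pairs had an r over 0 and 6 under 0. Among the Per and Cry genes alone 9 of 10 pairs had an r over 0, with a median of 0.65. Over all genes above background, 45.5% (Per2) to 50.5% (Cry2) had an r under 0 with a Per or Cry gene. The highest such share for any of the 10 clock genes was 56.1%, with Nr1d1. Per1 and Per2 had an r of 0.86 (exact permutation p = 0.0278; adjusted p = 0.781), beside 2.68% of all genes called with r over 0 for Per1. That r was 0.36 without replicates 4 and 8, the extremes of Per1, and so depended on those arrays together. With any 1 array left out it stayed between 0.72 and 0.94. Over all 45 pairs of the 10 genes, 30 had an r over 0 and 3 passed unadjusted, all with r over 0, and none passed adjusted. In either direction 2.5% to 11.8% of all genes passed unadjusted, depending on the clock gene. Dbp had an r under 0 with 6 of the other 9, beside 52.2% of all genes, with values from -0.63 with Cry1 to 0.43.

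**Figure D5:**
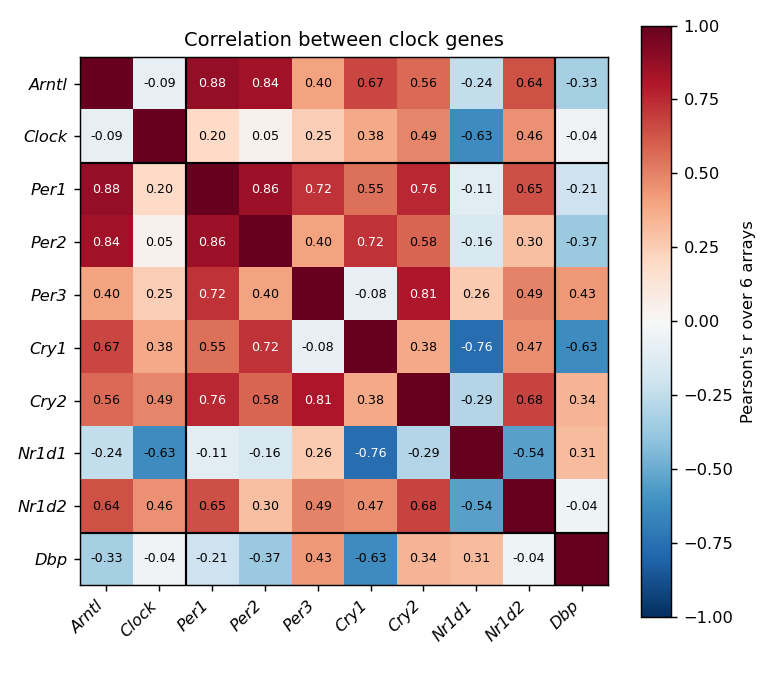
Pearson's r over the 6 arrays for all 45 pairs of the clock genes, printed in each cell and shaded from -1 to 1. The 5 Per and Cry genes have positive values with Arntl, and the row of Nr1d1 holds negative values with 7 of the other 9.

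Outside the 10 genes, 28 other genes of the clock were listed. Rora, listed as an activator of the loop, was not found among the measured genes, and the 27 that were found were all above background. With Arntl, 1 of the 27 had an unadjusted exact p under 0.05, with r over 0, beside 3.01% of all genes, and none passed after adjustment. It was Nfil3, a bZIP repressor that opposes DBP (r = 0.82, exact p = 0.0458, adjusted p = 0.923). Nfil3 ran from 8.85 in replicate 7 to 9.31 in replicate 2, and without replicates 7 and 8 its r was 0.35. Nfil3 did not pass after median centring (exact p = 0.0514), quantile normalization (r = 0.64) or loess correction (r = 0.62), on the linear scale or by ranks, and of the arrays left out in turn it passed only without replicate 4.

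With Nr1d1, 2 of the 27 passed the exact permutation test unadjusted with r over 0 and 1 with r under 0, beside 6.91% and 4.86% of all genes, and again none passed after adjustment (adjusted p = 0.410 for each). Those over 0 were Ppp1cb, a catalytic subunit of protein phosphatase 1 (r = 0.91, exact p = 0.00417), and Usp2, a deubiquitinase (r = 0.86, exact p = 0.0167). The gene under 0 was the nuclear receptor coactivator Ncoa3 (r = -0.88, exact p = 0.0153). After quantile normalization or loess correction none of the 3 passed, and Ncoa3 turned to 0.23 and 0.079. After median centring Ncoa3 did not pass either. Without replicate 5 only 1 gene was called.

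Genes that answer to glucocorticoids and to fresh serum were listed as well, since both signals reach the clock. Of 6 glucocorticoid response genes, 1 passed unadjusted with Arntl with r over 0, beside 3.01% of all genes, and 1 with r under 0, beside 2.2%. They were Tsc22d3, which encodes the protein GILZ (r = 0.94, exact permutation p = 0.00694, adjusted p = 0.734), and the kinase gene Sgk1 (r = -0.90, exact p = 0.0222, adjusted p = 0.830). Without replicates 7 and 8 the r with Sgk1 was -0.36 and that with Tsc22d3 0.94. With Nr1d1, 2 of the 6 passed with r under 0, beside 4.86% of all genes, the phosphatase gene Dusp1 (r = -0.81, exact p = 0.0472, adjusted p = 0.411) and the zinc finger gene Zbtb16 (r = -0.88, exact p = 0.0319, adjusted p = 0.410), the latter with an r of -0.35 without the 2 arrays most extreme in Nr1d1. Of 5 immediate early genes above background, the one that passed unadjusted was Crem, with Nr1d1 (r = -0.90, exact p = 0.00556, adjusted p = 0.410). After quantile normalization none of these 5 passed, and Zbtb16 and Crem turned to 0.28 and 0.29 with Nr1d1. The immediate early genes Egr1 (SD 0.202) and Junb (SD 0.228) spread more than any of the 10 clock genes, and Egr1 was highest in replicate 4, at 10.53.

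The genes whose pattern was most like that of Arntl over the 6 arrays were Pigl (r = 0.997), Stk32a (r = 0.994) and Cyb5r1 (r = 0.9898), all with a rho of 1 and an exact permutation p of 0.00139, the smallest possible, and an adjusted p of 0.635. For Nr1d1 they were Col11a1 (r = 0.998), 3110082I17Rik (r = 0.995) and Tmem213 (r = 0.993), with an adjusted p of 0.410. With 12792 genes and 6 arrays, values this high were picked as extremes and are given as a description. Thra, a thyroid hormone receptor gene that overlaps Nr1d1 on the opposite strand, had a mean of 10.71 ± 0.13 (SD, n = 6) and an r of 0.070 with Nr1d1 (exact p = 0.875).

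Each of the 10 clock genes was tested against 13 measures of the arrays and their cell makeup. Several of these tests had an unadjusted exact p under 0.05, as a share of about 0.05 would by chance. None passed adjustment over the 13 measures of its gene, which does not allow for the number of clock genes. All that passed unadjusted are given in this and the next paragraph. Per1 had a negative r with the mean of 6 motor neuron markers (r = -0.90, exact permutation p = 0.0153, adjusted p = 0.199). The markers were Mnx1, Isl1, Isl2, Lhx3, Chat and Slc5a7, all above background. Their mean ran from 9.11 in replicate 4, where Per1 was highest, to 9.34 in replicate 8, where Per1 was lowest. Isl1 and Slc5a7 were lowest and highest in these same arrays, but the markers did not all move alike. Lhx3 was 8.63 in replicate 4 and 8.54 in replicate 8, and Chat was highest in replicate 2. Per3 had a negative r with the mean of the same markers (r = -0.86, exact p = 0.0333, adjusted p = 0.217). That r was -0.17 without the 2 arrays most extreme in Per3 and so rested on them. Per3 also had a positive r with the average r of an array with the others (r = 0.83, exact permutation p = 0.00417, adjusted p = 0.0542), which was lowest in replicate 8.

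Of 7 non-neural markers, the 3 above background, Col1a1, Col3a1 and Foxa1, were averaged, and Nr1d1 had a positive r with their mean. That r was 0.86 (exact permutation p = 0.0181, adjusted p = 0.150), and the mean ran from 9.17 to 9.39. The 3 genes did not move alike, as Foxa1 was highest in replicate 8, at 11.07, where Col1a1 and Col3a1 were lowest. Nr1d1 also had a positive r with the lower quartile of intensity of the array (r = 0.81, exact p = 0.0306, adjusted p = 0.150). That quartile ran from 109 in replicate 8 to 129. With the mean of the glucocorticoid response genes Nr1d1 had a negative r (r = -0.79, exact p = 0.0347, adjusted p = 0.150). Of 6 pluripotency markers 2 were above background, Nanog and Sall4, and Dbp had a negative r with their mean (r = -0.86, exact p = 0.0319, adjusted p = 0.415). The part of these measures in the relations between clock genes was not tested. Of 5 blood markers measured, 2 were above background.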

How the data were processed

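Total RNA of embryoid body cultures was hybridised to 6 Affymetrix mouse exon arrays. The deposited values are linear intensities that the authors made by Robust Multi-array Averaging (RMA) in Aroma Affymetrix, as the mean of the exons of each gene. The submitters' processing notes also name Affymetrix Expression Console. Which arrays were normalized together is not given in the sources used here. The study's correction for batches of neurons, built on motor neuron genes, gives log2 ratios to a predicted expression. The deposited values, with array medians from 296 to 311, are not on that scale. Whether they were corrected in some other form is not given. The genome build of the files is likewise not given.

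Intensities were taken to log2 with no pseudocount. Names were matched to RefSeq symbols (17541) or synonyms (1790), and 282 matched neither. Pearson's r of each clock gene with every other gene above background was tested by two-sided exact permutation over 720 pairings, with Benjamini-Hochberg adjustment over all those genes for each clock gene, and a pair of clock genes takes the adjusted p of the gene named first. The script was tested on simulated data. Besides the 10 genes, the text names listed clock genes with an unadjusted p under 0.05 with Arntl or Nr1d1 or an SD above 0.2, genes of the glucocorticoid and immediate early lists by the same rule, the 3 genes most like Arntl and Nr1d1, and Thra. Some genes of the other clock lists are not reported here. The members and lists were chosen with earlier results of these data known. The alternatives were other scalings, linear values, ranks, other background levels, other limbs and arrays left out. The number of arrays limits the precision. Tools were Python 3.11.15, numpy 2.4.6, pandas 2.3.3, scipy 1.17.1 and statsmodels 0.14.6.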

Additional observations from a re-analysis of the deposited data

Results flagged for a closer look

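Wee1, a cell cycle kinase gene with an E-box controlled by the clock in liver, stood apart in 1 array. Its log2 intensity was 9.58 in replicate 2, and the gap to the next lowest array took 0.758 of the whole range, above the 95% limit of 0.625 for 6 arrays. It was the 1 set picked out of 55 screened in this way, where chance gives about 2.75, and none of the 10 core clock genes was picked out.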

How the results depend on the processing

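Of 660 values recomputed under 20 other settings, 520 kept their direction and side of the threshold or moved within the spread. Among the SDs of single clock genes, 5 of 100 moved further. All levels were among the 520, but most of them could not have failed, as the move allowed was the SD over the arrays. Median centring leaves the mean of a gene unchanged, and leaving out 1 array cannot shift it by that SD. No paired analysis was possible because all arrays belong to 1 group. The number of genes with an adjusted p under 0.05, recounted for Arntl and Nr1d1 alone, stayed at 0 throughout. With background at the 99th percentile neither of them remained to be counted. With 1 array left out only 120 pairings exist, so a count of 0 was nearly fixed in advance there. The r of the limb means was 0.30 with background at the 99th percentile, 0.72 with Nr1d1 and Nr1d2 alone as the negative limb, 0.57 with Npas2 added to the positive limb and 0.37 with Clock alone there, the last chosen after seeing the data. With 1 array left out it was 0.78 to 0.98. Pairs of opposite limbs with r under 0 were 4 after quantile normalization, loess correction or ranks, 0 at the stricter background and 1 to 4 with 1 array left out. Such pairs called with r over 0 were 1 after quantile normalization or loess correction, 0 at the stricter background and 0 to 2 with 1 array left out. At that background 5 members remained and 0 differed by over 1.2-fold, against 2 after quantile normalization and 0 to 1 with 1 array left out. Other clock genes called with Arntl, 1 as deposited, were 2 after quantile normalization and 1 after loess correction, neither time with Nfil3 among them, 0 after median centring, on the linear scale or by ranks and 0 to 1 with 1 array left out. Those called with Nr1d1, 3 as deposited, were 0 after quantile normalization or loess correction and 1 to 3 with 1 array left out.

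Some relations changed sign. Median centring turned Arntl with Clock to 0.12 and Clock with Dbp to 0.48. Quantile normalization turned Clock with Cry1 to -0.16 and with Nr1d2 to -0.0024, and Nr1d1 with Ncoa3 to 0.23, Zbtb16 to 0.28 and Crem to 0.29. Loess correction turned Clock with Cry1 to -0.22, with Nr1d2 to -0.19 and with Dbp to 0.046, and Nr1d1 with Ncoa3 to 0.079, Zbtb16 to 0.18 and Crem to 0.17. Ranks turned Clock with Per2 and with Per3 to -0.086. With 1 array left out, r ran from -0.81 to 0.20 for Arntl with Clock and from -0.65 to 0.27 for Arntl with Nr1d1. For Clock it ran from -0.50 to 0.44 with Per1, -0.79 to 0.37 with Per2, -0.31 to 0.49 with Per3, -0.61 to 0.73 with Cry1 and -0.67 to 0.50 with Dbp. The stricter background and the other limbs use fewer or different genes, and the cause was not tested for the rest.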
